A study of Mus musculus with 10 samples.

Results

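The mitochondrial carriers (gene family Slc25a) and the uncoupling proteins Ucp1, Ucp2 and Ucp3 were examined in the livers of 5 starved and 5 fed mice. The members were taken by symbol from the deposited count files: every row that starts with Slc25a except Slc25a1, Slc25a13, Slc25a15 and Slc25a20, plus the 3 Ucp rows, which gave 46 of 23420 genes. Starved livers came from male C57BL/6 mice aged 4 months that had water but no food for 48 hours, and fed livers from males of the same strain and age kept on standard chow. The labels give no transgene, deletion or drug in either group. Each library is 1 liver, numbered as in the sample titles. The series asks how the metabolic state regulates genes through β-hydroxybutyrylation of histone lysines. Of the 46 genes, 37 had enough reads for the test, 9 did not, and 1 of these 9, Slc25a54, had no read in any library.

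The proteins of this family sit almost all in the inner membrane of mitochondria and exchange small molecules across it. Adenine nucleotide and phosphate carriers feed the ATP synthase, dicarboxylate and amino acid carriers connect the citric acid cycle with gluconeogenesis and the urea cycle, and other members bring in cofactors, nucleotides and iron. The uncoupling proteins are close relatives, of which UCP1 lets protons back into the matrix and makes heat in brown fat.

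Reads assigned to genes came to 18.2 to 28.1 M per starved library and 22.98 to 29.9 M per fed library. At these depths 3 reads, taken here as the detection floor, equal 0.0994 to 0.174 CPM, the library-scaled read count of a gene. Levels below are CPM after TMM scaling, which corrects for differences in library composition. A gene is said to have risen or fallen only when edgeR's quasi-likelihood test gave an adjusted p under 0.05, with the Benjamini-Hochberg correction taken over the 12796 genes tested. The 7 hepatocyte markers in the files summed to 112228 to 174315 CPM in starved and 87967 to 132030 CPM in fed livers. Of these markers 2 rose and 1 fell. Most of the sum was Alb (94215 ± 20087 CPM in starved and 82740 ± 14124 CPM in fed livers, SD), which was not called. Starved libraries 2 and 4 were known from earlier results to stand apart from the other starved libraries, so values without them are given where they matter. Starved 2 was the highest or lowest of the 5 starved livers for 29 of the 37 tested carriers (78.4%), against 68.7% of all genes. Starved 4 was the highest or lowest for only 10 of the 37. The median SD of log2 CPM over the carriers was 0.45 in starved and 0.16 in fed livers, against 0.34 in starved and 0.17 in fed livers over all genes.

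In starved liver 14 of the 37 tested carriers rose (37.8%) and 5 fell (13.5%). Over all genes 18.6% rose and 20.0% fell. Slc25a33, a pyrimidine nucleotide carrier, and Slc25a47, a carrier found mainly in liver, rose the most among members with at least 1 CPM, and Slc25a23, an ATP-Mg/phosphate carrier, fell the most. The order of the rises rests on starved 2, without which Slc25a27 (1.22) and Slc25a22 (1.01) exceeded Slc25a47 (0.96), and without starved 2 and 4 Slc25a27 was first (1.09). The median log2 fold change (starved over fed) of the tested carriers was 0.33, against 0.00 for all genes, and it was 0.19 without starved 2. The groups did not overlap in 15 of the 37 carriers (40.5%), against 29.9% of all genes, and all 15 were among the 19 called. The count of carriers that fell was 2 without starved 1, fed 2 or fed 4, and 3 without starved 3, starved 4, fed 1, fed 3 or fed 5. The share of all genes that fell is not given for these fits, so the lower counts cannot be set against it. Without starved 2 and 4, again 14 rose and 5 fell, where 20.2% of all genes rose and 20.7% fell. With library totals alone in place of TMM, which moved the median of all genes to -0.15, 10 carriers rose and 5 fell, where 11.6% of all genes rose and 27.3% fell.

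**Figure D1:**
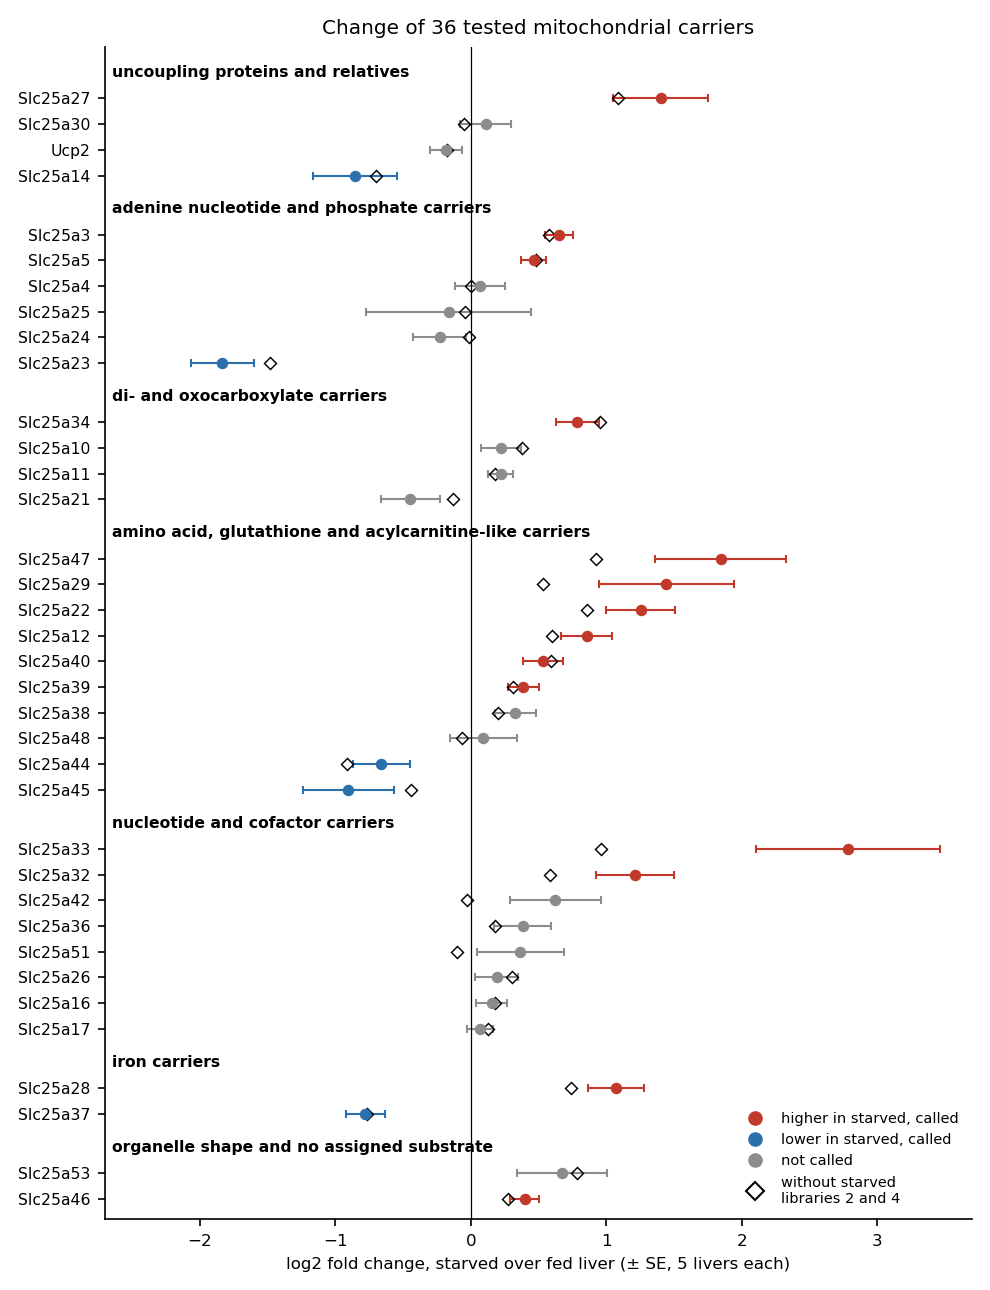
Log2 fold change (starved over fed, ± SE, 5 livers each) of 36 of the 37 tested carriers, grouped by role, with red for carriers that rose, blue for those that fell and grey for those not called. Open diamonds are the values without starved libraries 2 and 4, where Slc25a33 stands at 0.96 in place of 2.78 and Slc25a23 at -1.48 in place of -1.83.

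Slc25a47 (chr12:108836046-108856815, plus strand, GENCODE on GRCm38) was the most abundant member in both groups. It stood at 1313, 7749, 1342, 1567 and 1594 CPM in starved livers 1 to 5, against 635, 688, 699, 849 and 904 CPM in fed livers 1 to 5. All starved livers lay above all fed livers, and starved 2 was far above the other starved livers. The log2 fold change was 1.85 ± 0.48 SE (edgeR adjusted p = 0.0111), and 0.96 without starved 2. Slc25a47 alone took 0.127% to 0.658% of all assigned reads in starved and 0.0694% to 0.0978% in fed libraries. All 46 members together took 0.360% to 0.950% in starved and 0.285% to 0.332% in fed libraries. Without Slc25a47 they took 0.233% to 0.292% in starved and 0.216% to 0.235% in fed libraries. DESeq2's Wald test gave Slc25a47 and Slc25a29 no adjusted p.

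Slc25a29, which carries basic amino acids such as arginine and lysine, lies beside Slc25a47 on chromosome 12, in the opposite direction. In GENCODE 162 bases lie between the annotated ends of the genes. The RefSeq start of Slc25a47 used below lies far downstream, just past chr12:108851128, against a GENCODE start at chr12:108836046. Slc25a29 stood at 3.62, 21.9, 3.69, 4.55 and 4.81 CPM in starved livers 1 to 5, against 1.93, 2.55, 2.46, 3.79 and 3.34 CPM in fed livers. Starved 2 again stood far above the rest, and the groups overlapped. Slc25a29 rose by 1.44 ± 0.50 on the log2 scale (adjusted p = 0.0379, edgeR), but the value was 0.58 without starved 2, and 0.53 and no longer called without starved 2 and 4. The call was also lost when any 1 fed library was left out (1.33 to 1.57 on the log2 scale), with limma-voom (1.04) and with library totals alone (1.22), and held in 10 of 21 alternatives.

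Slc25a33 (chr4:149744036-149774277, minus strand) had the largest log2 fold change, 2.78 ± 0.68 (adjusted p = 0.00766, edgeR). Its values were 15.4, 217, 17.9, 94.2 and 30.02 CPM in starved livers 1 to 5, against 11.6, 10.5, 15.9, 6.89 and 9.50 CPM in fed livers. Starved 2 and 4 were highest, and starved 1 lay within the range of the fed livers. Without starved 2 the log2 fold change was 1.86, and without starved 2 and 4 it was 0.96, still called. Slc25a36, the other pyrimidine nucleotide carrier, averaged 3.97 ± 1.28 CPM in starved and 3.05 ± 0.341 CPM in fed livers (SD, n = 5 each) and was not called, except without starved 5 (0.51). The antisense gene Gm13068 overlaps 14.9% of the exon length of Slc25a33, and since the strand setting of the counting is not given, its reads cannot be told from those of Slc25a33.

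**Figure D2:**
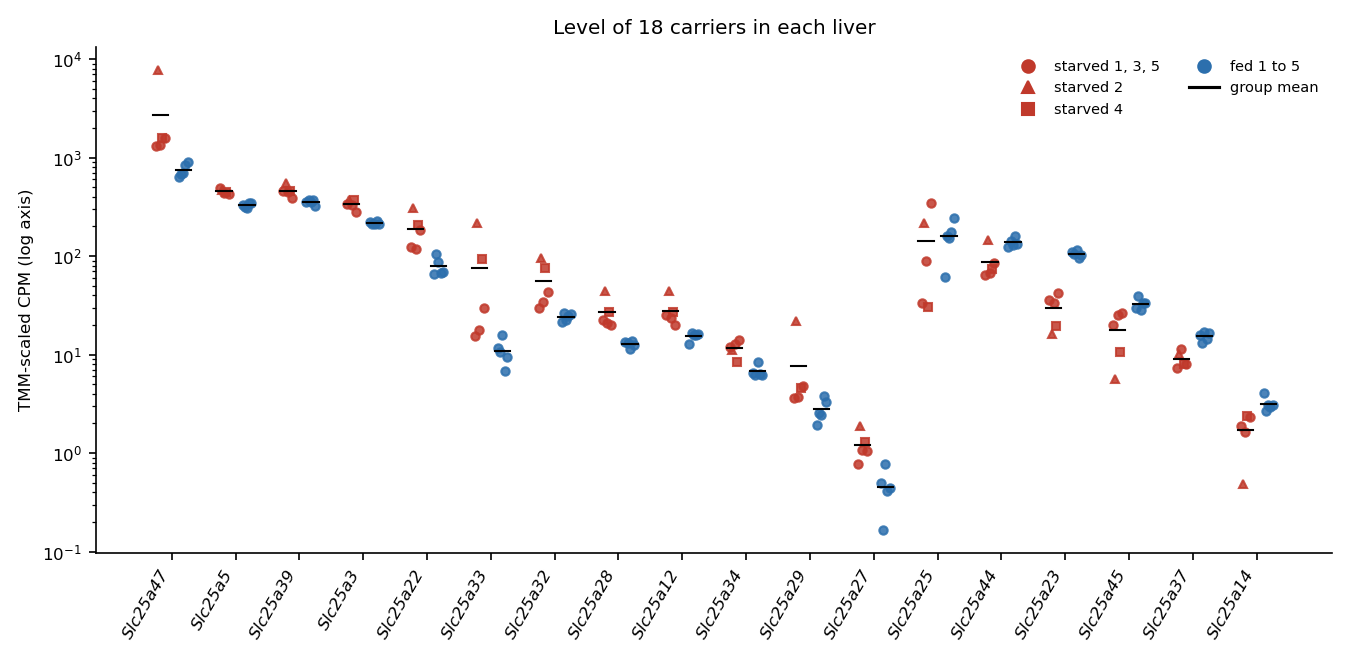
TMM-scaled CPM on a log axis of 18 carriers in each starved (red, left) and fed (blue, right) liver, with black bars at the group means. Starved 2 (triangles) and starved 4 (squares) lie at 217 and 94.2 CPM for Slc25a33, above the other starved livers, while for Slc25a23 they lie at 16.2 and 19.7 CPM, below them.

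The promoters of these neighbours and of the carriers with the largest rise and fall are printed so that their letters can be read beside the values. A window of Slc25a25, which was not called, is added as the 1 of its 3 windows that holds a motif. Each is the 250 bases before an annotated start, read 5′ to 3′ in the direction of the gene, from RefSeq on GRCm38.p6. The promoter table matched 35 of the 46 members, with 44 start sites. Capitals mark a match to 1 of 4 motifs searched on both strands: the E-box CACGTG, bound by MYC, MAX and clock factors, the cAMP response element TGACGTCA, the forkhead element TGTTTAC and the SREBP element TCACNCCAC.
Slc25a33, chr4:149774268-149774517, minus strand: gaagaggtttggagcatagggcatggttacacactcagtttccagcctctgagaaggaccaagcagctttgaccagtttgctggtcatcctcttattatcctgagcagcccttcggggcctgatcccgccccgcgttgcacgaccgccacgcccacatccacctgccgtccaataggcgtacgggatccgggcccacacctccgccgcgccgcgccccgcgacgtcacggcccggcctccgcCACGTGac
Slc25a47, chr12:108850879-108851128, plus strand: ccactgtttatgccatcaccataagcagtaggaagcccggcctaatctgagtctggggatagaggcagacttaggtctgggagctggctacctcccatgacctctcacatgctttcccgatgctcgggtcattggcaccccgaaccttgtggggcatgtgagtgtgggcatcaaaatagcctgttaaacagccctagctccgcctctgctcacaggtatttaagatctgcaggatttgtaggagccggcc
Slc25a29, chr12:108835877-108836126, minus strand: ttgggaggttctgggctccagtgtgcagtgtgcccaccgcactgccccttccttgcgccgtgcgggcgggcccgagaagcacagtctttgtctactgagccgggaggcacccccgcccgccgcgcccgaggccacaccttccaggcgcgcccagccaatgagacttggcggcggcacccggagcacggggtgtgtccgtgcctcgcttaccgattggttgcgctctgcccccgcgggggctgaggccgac
Slc25a23, chr17:57059864-57060113, minus strand: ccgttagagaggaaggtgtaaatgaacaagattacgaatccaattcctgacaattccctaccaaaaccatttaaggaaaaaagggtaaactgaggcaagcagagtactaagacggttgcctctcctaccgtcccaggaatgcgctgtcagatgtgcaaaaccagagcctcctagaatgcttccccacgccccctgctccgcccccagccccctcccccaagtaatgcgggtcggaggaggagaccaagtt
Slc25a25, chr2:32424067-32424316, minus strand: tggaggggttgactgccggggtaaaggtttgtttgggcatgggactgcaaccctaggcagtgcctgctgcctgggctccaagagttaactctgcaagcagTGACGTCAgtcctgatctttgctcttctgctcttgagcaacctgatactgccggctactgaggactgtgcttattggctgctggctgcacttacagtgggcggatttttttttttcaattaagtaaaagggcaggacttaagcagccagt
The window of Slc25a33 holds an E-box that begins 8 bases before the start. E-boxes were found in 5 of the 44 windows (11.4%), against 6.02% of all 32851 windows in the table, and belonged to Slc25a14, Slc25a31, Slc25a33 and Slc25a36, where overlapping windows of Slc25a14 share 1 site. No match overlapped another motif. The cAMP response element was found in 1 of 3 windows of Slc25a25, 150 bases before that start, and in the window of Slc25a36, against 1.55% of all windows. The SREBP element was found in the windows of Ucp2 and Slc25a18, against 1.05% of all windows, and the forkhead element in 0 of 44, against 3.17%. The windows of Slc25a47, Slc25a29 and Slc25a23 printed here held none of the 4 motifs. Slc25a23 has a second start in the table, 21 bases away.

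Among the carriers that serve ATP synthesis, Slc25a3, the phosphate carrier, and Slc25a5, the main adenine nucleotide translocase of liver, rose with little spread. Slc25a3 stood at 342, 374, 334, 372 and 278 CPM in starved livers, against 221, 214, 211, 225 and 211 CPM in fed livers (log2 fold change 0.65 ± 0.10, adjusted p = 0.000749, edgeR). Slc25a5 stood at 488, 465, 439, 445 and 430 CPM in starved livers, against 331, 317, 308, 345 and 343 CPM in fed livers (0.46 ± 0.09, adjusted p = 0.00248, edgeR). For both genes all starved livers lay above all fed livers, and both calls held under each of the 21 alternatives. Slc25a4, the translocase of heart and muscle, averaged 7.13 ± 1.78 CPM in starved and 6.79 ± 1.13 CPM in fed livers and was not called (adjusted p = 0.787, edgeR; 95% interval of the log2 fold change -0.33 to 0.47). Its estimate turned to -0.11 with library totals alone. None of 6 skeletal muscle markers had enough reads for the test, and their summed level was 0.289 to 0.787 CPM in starved and 0.331 to 0.983 CPM in fed livers. Slc25a31, the translocase of male germ cells, had 2 reads over the starved and 19 over the fed libraries. Of 6 testis germ cell markers 3 are listed at 0 in every library, and the list summed to 3.30 to 6.20 CPM in starved and 2.69 to 3.71 CPM in fed livers, nearly all of it Sycp3, which rose (4.68 ± 1.18 CPM in starved and 3.001 ± 0.343 CPM in fed livers, edgeR adjusted p = 0.0172). Of the 50-base stretches of Slc25a5's transcripts, 33.8% also occur in transcripts of 9 other annotated genes, the one sharing most of them being Gm5560. Reads aligned to more than 1 place were tallied apart from genes, so such reads are missing from the level of Slc25a5 in both groups.

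The ATP-Mg/phosphate carriers, which set the adenine nucleotide content of the matrix in response to calcium, held 1 call among the 3 tested, a fall of Slc25a23. Over all genes 18.6% rose and 20.0% fell. Slc25a23 (chr17:57043711-57059863, minus strand) fell to 35.8, 16.2, 33.4, 19.7 and 42.4 CPM in starved livers 1 to 5, against 109, 105, 114, 95.9 and 102 CPM in fed livers. No starved liver came near the lowest fed liver, and starved 2 and 4 were the lowest of all. The log2 fold change was -1.83 ± 0.23 (adjusted p = 0.000207, edgeR), and -1.48 without starved 2 and 4. Slc25a24 averaged 1.75 ± 0.428 CPM in starved and 2.05 ± 0.314 CPM in fed livers and was not called. Slc25a25 was singled out after its values were seen. It stood at 33.8, 219, 88.3, 30.7 and 343 CPM in starved livers, against 61.8, 159, 154, 177 and 246 CPM in fed livers (log2 fold change -0.16 ± 0.61, adjusted p = 0.852, edgeR). The highest starved liver was 11.2-fold above the lowest, and the highest fed liver 3.98-fold above the lowest, and the groups overlapped. Within libraries, Slc25a25 over Slc25a23 did not differ past the threshold either (log2 ratio higher by 1.27 in starved livers, adjusted p = 0.238, exact permutation test). The sign of its estimate turned when starved 1 (0.09), starved 4 (0.11) or fed 5 (0.05) was left out. The testis relative Slc25a41 had 0 reads in starved and 1 in fed libraries.

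Of the carriers of dicarboxylates and oxoacids, 1 of 4 tested rose (25%, near the 18.6% of all genes) and 0 fell (against 20.0%). Slc25a34, whose substrate is not settled, stood at 11.8, 11.1, 12.9, 8.38 and 14.2 CPM in starved livers, against 6.57, 6.26, 8.42, 6.40 and 6.16 CPM in fed livers. Starved 4 lay just below fed 3 and all other starved livers above all fed livers (log2 fold change 0.79 ± 0.16, adjusted p = 0.00266, edgeR). Slc25a10, which exchanges malate or succinate for phosphate, averaged 175 ± 39.6 CPM in starved and 150 ± 7.70 CPM in fed livers and was not called, but it was called without starved 4 (0.36) and without starved 2 and 4 (0.38). Slc25a11, the oxoglutarate/malate carrier of the malate-aspartate shuttle, averaged 101 ± 6.89 CPM in starved and 87.0 ± 5.79 CPM in fed livers (0.22 ± 0.09, adjusted p = 0.0726, edgeR). Slc25a11 was called without starved 5 (0.26) and by DESeq2's Wald test. Slc25a21, which carries 2-oxoadipate from lysine and tryptophan breakdown, averaged 11.1 ± 3.74 CPM in starved and 15.1 ± 1.46 CPM in fed livers and was not called. Slc25a35 had 31 reads in starved and 69 in fed libraries, and the protein-coding gene Rangrf on the other strand overlaps 31.3% of its exon length.

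The list of amino acid, glutathione and acylcarnitine-like carriers held 8 of the 19 calls. Of its 10 tested members 6 rose (60%) and 2 fell (20%), against 18.6% and 20.0% of all genes. Besides Slc25a47 and Slc25a29, Slc25a22, a glutamate carrier, rose. It stood at 125, 310, 117, 206 and 182 CPM in starved livers, against 65.6, 105, 87.2, 67.4 and 69.1 CPM in fed livers. All starved livers were above all fed livers, with the smallest gap between starved 3 and fed 2 (log2 fold change 1.26 ± 0.25, adjusted p = 0.00287, edgeR). Without starved 2 and 4 the log2 fold change was 0.86, still called. Slc25a12, an aspartate-glutamate carrier of the malate-aspartate shuttle, stood at 25.4, 44.0, 23.7, 26.9 and 19.99 CPM in starved livers, against 12.9, 16.5, 15.9, 15.8 and 16.3 CPM in fed livers. The groups did not overlap (0.85 ± 0.19, adjusted p = 0.00473, edgeR), and the value was 0.60 without starved 2 and 4, still called. Slc25a39 and Slc25a40, the carriers that bring glutathione into mitochondria, both rose. Slc25a39 stood at 455, 557, 448, 453 and 393 CPM in starved livers, against 352, 367, 353, 370 and 320 CPM in fed livers (0.39 ± 0.11, adjusted p = 0.0169, edgeR). Slc25a40 averaged 4.02 ± 0.348 CPM in starved and 2.78 ± 0.432 CPM in fed livers (0.53 ± 0.15). In both genes the groups did not overlap, and neither was called with library totals alone or at an adjusted p under 0.01.

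Slc25a44, a carrier of branched-chain amino acids, fell by 0.66 ± 0.21 on the log2 scale (adjusted p = 0.0263, edgeR). It stood at 63.7, 145, 66.8, 73.9 and 85.9 CPM in starved livers, against 122, 141, 130, 162 and 133 CPM in fed livers. Only starved 2 lay within the range of the fed livers, and without it the fall was larger (-0.91). The call was lost without starved 1 (-0.56), starved 3 (-0.58), starved 4 (-0.58), fed 2 (-0.65) or fed 4 (-0.60). Slc25a45 fell to 19.9, 5.72, 25.1, 10.6 and 26.7 CPM in starved livers, against 29.7, 39.1, 28.6, 33.5 and 33.4 CPM in fed livers. The groups did not overlap, and starved 2 and 4 were lowest (-0.90 ± 0.33, adjusted p = 0.0499, edgeR). This call was lost without starved 1 (-0.95), starved 4 (-0.74) or any 1 fed library (-0.95 to -0.83), but it was made without starved 2 and 4 (-0.44). It was also lost with DESeq2 size factors (-0.88), upper-quartile factors (-0.91) and a filter of 1 CPM in 5 libraries (-0.91), and held in 9 of 21 alternatives. Slc25a38, which supplies glycine for haem synthesis, and Slc25a48 were not called. Slc25a2, an ornithine carrier, and Slc25a18, a glutamate carrier of brain, had 19 and 18 reads in the starved libraries, against 33 and 11 in the fed libraries.

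Of 9 carriers of nucleotides and cofactors, 2 rose (22.2%, near the 18.6% of all genes) and 0 fell. Besides Slc25a33, Slc25a32, which is needed for folate and flavin in mitochondria, rose. It stood at 29.997, 95.4, 34.5, 76.5 and 43.0 CPM in starved livers, against 21.5, 26.3, 22.4, 24.8 and 25.8 CPM in fed livers. The groups did not overlap, with starved 2 and 4 highest (log2 fold change 1.21 ± 0.29, adjusted p = 0.0067, edgeR), and the value was 0.58 without these libraries. Neutrophil markers were also highest in starved 4 and 2. Of 7 in the files 6 were tested, 4 rose and 0 fell, and their summed level was 11.7, 24.9, 13.8, 32.2 and 5.68 CPM in starved livers 1 to 5, against 4.64 to 7.02 CPM in fed livers. The part of these cells in the levels of Slc25a33 and Slc25a32 was not tested. Slc25a51, the NAD carrier, stood at 161 CPM in starved 2, against 46.8 to 57.9 CPM in the other starved and 47.0 to 74.6 CPM in the fed livers, and was not called. Slc25a42, a coenzyme A carrier, likewise stood at 85.4 CPM in starved 2, against 19.4 to 34.8 CPM in the other starved and 21.1 to 29.8 CPM in the fed livers, and was not called. Without starved 2 and 4 the estimates of these carriers were -0.10 for Slc25a51 and -0.03 for Slc25a42. Among the others, Slc25a16 (coenzyme A), Slc25a17 (the peroxisomal carrier of coenzyme A and nucleotides), Slc25a26 (S-adenosylmethionine) and Slc25a36, had log2 fold changes of 0.07 to 0.38 and were not called.

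The iron carriers moved in opposite directions. Slc25a28 (chr19:43663801-43674881, minus strand), mitoferrin 2, which most tissues express, stood at 22.5, 44.6, 20.8, 27.2 and 20.05 CPM in starved livers, against 13.5, 13.2, 11.3, 13.7 and 12.4 CPM in fed livers, and rose by 1.07 ± 0.21 on the log2 scale (adjusted p = 0.00207, edgeR). Slc25a37 (chr14:69241848-69285112, minus strand), mitoferrin 1, which supplies iron to the haem synthesis of red cell precursors, stood at 7.28, 10.05, 11.5, 8.09 and 8.06 CPM in starved livers, against 15.8, 13.2, 16.9, 14.5 and 16.7 CPM in fed livers, and fell (-0.78 ± 0.14, adjusted p = 0.00175, edgeR). Neither gene's groups overlapped, and both calls held under all 21 alternatives. Without starved 2 and 4 the log2 fold changes were 0.74 for Slc25a28 and -0.77 for Slc25a37. Within each library, Slc25a37 had 0.324, 0.226, 0.554, 0.298 and 0.403 reads for every read of Slc25a28 in starved livers 1 to 5, against 1.17, 0.995, 1.49, 1.06 and 1.35 in fed livers. The exons of Slc25a37 are longer (6021 bases, against 3749 for Slc25a28), so 1 read per read does not mark equal levels. As CPM per kilobase of exons, Slc25a37 averaged below Slc25a28 in both groups. The values were 1.49 ± 0.29 against 7.21 ± 2.72 in starved livers and 2.56 ± 0.26 against 3.42 ± 0.26 in fed livers (SD). The difference of the log2 ratio was -1.80 (exact two-sided permutation p = 0.00794, the smallest that 5 against 5 livers allow, adjusted p = 0.0265 over 10 ratios).

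Markers of red cell precursors moved with Slc25a37. Of 7 erythroid markers in the files, 3 had enough reads and all 3 fell, Alas2 and Slc4a1 among them. The 4 globin genes are listed at 0 in every library, which was not read as absence of their RNA, and its cause was not tested. The summed level of the list was 8.38 to 26.1 CPM in starved and 28.2 to 47.5 CPM in fed livers. The part of these cells in the fall of Slc25a37 was not tested. In whole tissue, fewer cells of a type and less RNA per cell cannot be told apart.

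Ucp2, which is expressed in macrophages and many other cells, was the 1 uncoupling protein with enough reads for the test, and it was not called. It stood at 12.5, 10.6, 11.0, 12.5 and 10.1 CPM in starved livers, against 11.8, 11.9, 15.1, 13.6 and 12.1 CPM in fed livers (log2 fold change -0.18 ± 0.12, 95% interval -0.44 to 0.07, adjusted p = 0.231, edgeR). The groups overlapped. Of 13 markers of Kupffer cells and other macrophages, 12 fell and 0 rose, and their summed level was 270 to 529 CPM in starved and 605 to 992 CPM in fed livers. Their part in the level of Ucp2 was not tested. The protein-coding gene Dnajb13 on the other strand overlaps 4.36% of the exon length of Ucp2.

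Ucp1, the heat-producing protein of brown fat, had 14, 0, 0, 0 and 0 reads in starved livers 1 to 5, against 64, 6, 4, 0 and 0 reads in fed livers 1 to 5. The adipocyte marker Adipoq, which encodes adiponectin, had 29, 1, 0, 1 and 1 reads in starved livers, against 86, 10, 3, 1 and 4 in fed livers. Both genes were highest in fed 1, and in starved 1 among the starved livers. Plin1, the fat droplet coat protein of adipocytes, had 4, 0, 0, 1 and 0 reads in starved livers, against 14, 11, 2, 0 and 0 in fed livers, and Cidea, another gene of brown fat, had 7 reads in starved 1, against 6, 3 and 1 in fed 1, 2 and 3 and 0 elsewhere. The 6 adipocyte markers summed to 0.321 to 6.25 CPM in starved and 2.69 to 9.76 CPM in fed livers, most of it Elovl3 in every library (3.50 ± 2.30 CPM in starved and 4.67 ± 1.51 CPM in fed livers), the 1 marker with enough reads for the test, which was not called and was highest in starved 3 among the starved livers. Lep and Adig, the remaining markers, had 0 to 5 reads in each starved and 0 to 13 in each fed library. The part of adipose tissue in the reads of Ucp1 was not tested. Ucp3, the uncoupling protein of muscle, had 0 reads in starved and 1 in fed libraries.

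**Figure D3:**
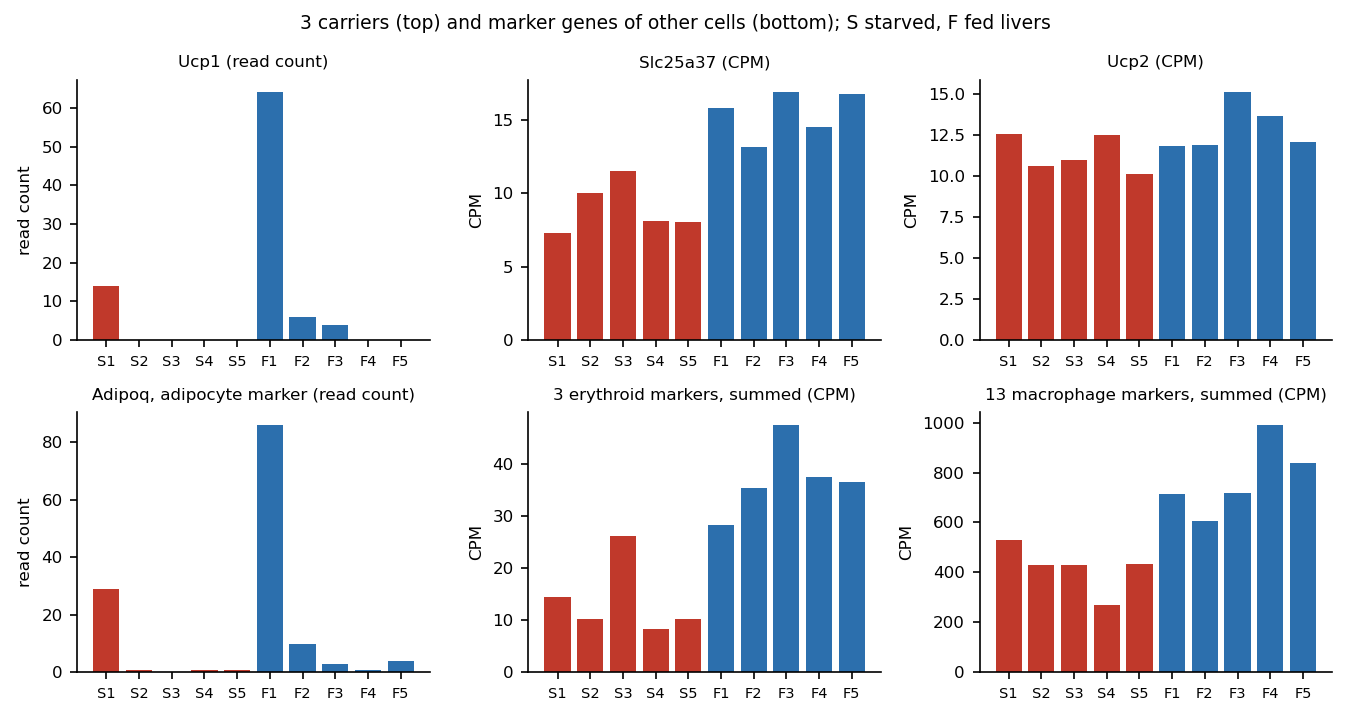
Ucp1 reads, Slc25a37 CPM and Ucp2 CPM (top) above Adipoq reads and the summed CPM of the erythroid and macrophage markers (bottom), per starved (S, red) and fed (F, blue) liver, as bars from 0. Ucp1 and Adipoq are highest in F1 (64 and 86 reads), both Slc25a37 and the erythroid markers are lower in all S livers than in all F livers, and Ucp2 overlaps between the groups while the macrophage markers do not.

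Of the relatives of the uncoupling proteins, Slc25a27 and Slc25a14 were low. Slc25a27, also called UCP4 and known from brain, stood at 0.778, 1.87, 1.08, 1.30 and 1.04 CPM in starved livers, against 0.492, 0.166, 0.772, 0.413 and 0.443 CPM in fed livers. The groups did not overlap, with starved 1 just above fed 3, and the log2 fold change was 1.40 ± 0.35 (adjusted p = 0.00845, edgeR). These values rest on 131 reads over the starved and 63 over the fed libraries. Slc25a14, also called UCP5, fell to 1.87, 0.481, 1.62, 2.38 and 2.32 CPM in starved livers, against 4.04, 2.65, 3.09, 2.93 and 3.10 CPM in fed livers (-0.85 ± 0.31, adjusted p = 0.0456, edgeR). Starved 2 was lowest, and without it the value was -0.61 and still called. The call was lost without starved 1 (-0.88), starved 3 (-0.83) or any 1 fed library (-0.91 to -0.75). Slc25a30, a kidney relative, averaged 18.2 ± 4.73 CPM in starved and 16.9 ± 3.01 CPM in fed livers and was not called.

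Slc25a46, a protein of the outer membrane that takes part in the shape and fission of mitochondria, rose (0.40 ± 0.11, adjusted p = 0.0127, edgeR), with 78.9 ± 10.5 CPM in starved and 59.9 ± 3.79 CPM in fed livers (SD, n = 5 each). The groups did not overlap, but the call was lost with library totals alone. Slc25a53 averaged 0.929 ± 0.339 CPM in starved and 0.580 ± 0.214 CPM in fed livers and was not called, except without starved 4 (0.88). Slc25a43 had 4 reads in starved and 10 in fed libraries.

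The ratio of related carriers within a library does not depend on how libraries are scaled. Of 12 pairs listed, 10 had both genes tested, and 3 of these 10 differed between the groups. Besides the iron carriers, Slc25a24 over Slc25a23 was higher in starved livers (0.0494, 0.0837, 0.0727, 0.0723 and 0.0444 reads per read, against 0.0156, 0.0242, 0.0192, 0.0203 and 0.0191 in fed livers), as was Slc25a47 over Slc25a45 (65.9, 1349, 53.4, 148 and 59.6, against 21.3, 17.6, 24.4, 25.3 and 27.0 in fed livers). Both had an exact two-sided permutation p of 0.00794, adjusted p = 0.0265 over the 10 ratios, and in all 3 pairs the groups did not overlap. Without starved 2 and 4 the differences of the log2 ratios were -1.53 for Slc25a37 over Slc25a28, 1.48 for Slc25a24 over Slc25a23 and 1.38 for Slc25a47 over Slc25a45. With only 3 starved livers the smallest p is 0.0179, and then no pair passed the adjustment. Slc25a33 over Slc25a36 and Slc25a14 over Slc25a30 did not pass (adjusted p = 0.0794 and 0.0595, exact permutation test), nor did Slc25a4 over Slc25a5 (0.0126 to 0.0216 reads per read in starved and 0.0170 to 0.0253 in fed livers, adjusted p = 0.106, exact permutation test).

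**Figure D4:**
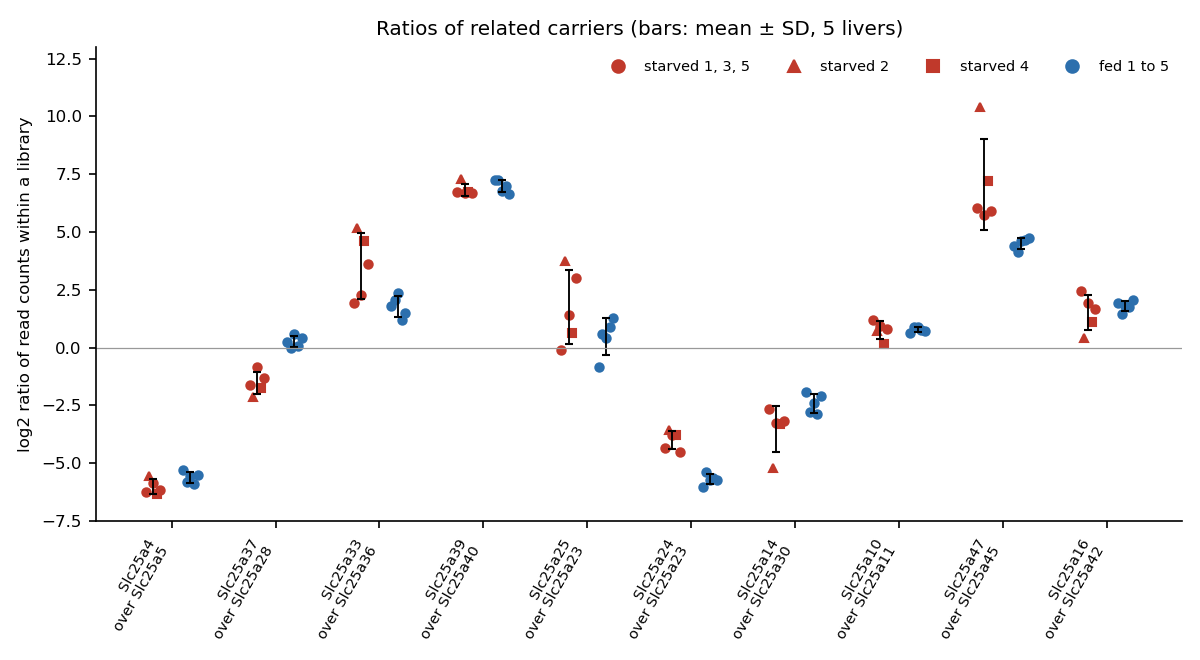
Log2 ratio of read counts of 10 pairs of related carriers within each starved (red, left) and fed (blue, right) liver, with mean ± SD. The groups do not overlap for Slc25a37 over Slc25a28, Slc25a24 over Slc25a23 and Slc25a47 over Slc25a45, and starved 2 (triangle) reaches 1349 reads of Slc25a47 per read of Slc25a45.

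Levels of different carriers can be compared only per length. As CPM per kilobase of annotated exons, Slc25a47 came first in both groups (909 ± 944 in starved and 253 ± 38.6 in fed livers), then Slc25a5 (275 ± 14.1 in starved and 200 ± 9.91 in fed livers) and Slc25a39 (167 ± 21.6 in starved and 128 ± 7.23 in fed livers). Slc25a3 stood at 61.2 ± 7.04 in starved and 39.0 ± 1.14 in fed livers on this scale, beside Slc25a10 at 50.6 ± 11.4 in starved and 43.3 ± 2.23 in fed livers and Slc25a11 at 47.8 ± 3.25 in starved and 41.0 ± 2.73 in fed livers, and within 1 SD Slc25a10 overlapped both of these neighbours in starved livers and Slc25a11 overlapped it in fed livers. The exon lengths join all annotated isoforms, so genes with long alternative ends are ranked too low.

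Other transporters of the mitochondrial membranes and the machinery that imports carrier precursors give the surroundings of the family. Both lists were drawn from earlier knowledge, with earlier results of these data known. Of 23 tested genes of other solute transporters, 5 rose and 5 fell (21.7% each way), near the 18.6% and 20.0% of all genes that rose and fell, with a median log2 fold change of 0.04. Sfxn2 and Sfxn1, sideroflexins, of which SFXN1 carries serine, rose by 0.75 ± 0.12 and 0.57 ± 0.11, and Mtch2, a relative of the carriers in the outer membrane, by 0.55 ± 0.13. Abcb10, an inner membrane transporter that serves haem synthesis (-1.08 ± 0.16), Sfxn5 (-1.02 ± 0.19) and Efha1, the older symbol of Micu2, which gates calcium uptake (-0.84 ± 0.14), fell. Mpc1 and Mpc2, the pyruvate carrier, were not called (0.09 ± 0.17 and -0.06 ± 0.12). Of 16 import genes, 6 rose (37.5%, against 18.6% of all genes) and 0 fell (against 20.0%), with a median of 0.16. With library totals alone 5 import genes rose, where 11.6% of all genes rose. Timm10, a chaperone that guides carriers across the intermembrane space, rose by 1.05 ± 0.18, Tomm40, the pore of the outer membrane, by 1.05 ± 0.22 (0.62 without starved 2 and 4), and Tomm20, a receptor of that pore, by 1.01 ± 0.15. The receptor of carrier precursors, Tomm70a, was not called (0.25 ± 0.10, adjusted p = 0.0698, edgeR), except without starved 2 and 4 (0.34). The number of import genes called lower in starved liver was 0 also under each alternative.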

How the data were processed

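Liver RNA of 5 starved and 5 fed mice was sequenced, 1 library per mouse. The authors deposited unnormalised counts of reads for each gene symbol. Total RNA was made into libraries with a kit that marks strand, per the labels' protocols. Per the submitters' processing notes, CASAVA 1.8.2, TopHat2 2.0.0, Bowtie2 2.0.0, HTSeq, edgeR 3.6.4 and build mm10 were used. The HTSeq version, annotation and strand setting were not given in the sources used here. HTSeq's tallies name no gene and were left out. Reads aligned to more than 1 place averaged 42.9% of all tallied reads in starved and 47.1% in fed libraries, and reads in no feature 20.1% in starved and 18.1% in fed libraries.

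All counts were fitted in R 4.3.3 with edgeR 4.0.16 (filterByExpr, TMM, quasi-likelihood test, starved over fed), with adjusted p under 0.05. Ratios used counts plus 0.5 and exact permutation tests. Alternatives used limma 3.58.1 and DESeq2 1.42.0. The fit was tested on simulated data. Positions, lengths and overlaps come from GENCODE on GRCm38 (mm10), which matched all 46 members. Named in full are the 12 called members that changed most among those reaching 1 CPM in the higher group, the 4 most abundant and Ucp1, Ucp2 and Ucp3; Slc25a25, Slc25a37 and Slc25a44 were added after their values were seen. The values of 1 tested carrier are not reported here. Members and lists were chosen with earlier results of these data known. Floors cover counting error only. No pair of libraries matched within sampling noise within a group.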

Additional observations from a re-analysis of the deposited data

Results flagged for a closer look

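Among 74 sets of 5 livers (37 tested carriers, starved and fed apart), 7 held 1 liver whose gap to the next was over 0.71 of the whole range on the log scale. Chance gives about 1 such set in 20 if sets are independent, but these sets share the same livers. No share over all genes is given, so the count of 7 is a description only. Of the 7, 5 were starved 2. It was the highest starved liver for Slc25a47 (7749 CPM, next 1594), Slc25a51 (161 CPM, next 57.9), Slc25a38 (48.5 CPM, next 30.3) and Slc25a29 (21.9 CPM, next 4.81), and the lowest for Slc25a14 (0.481 CPM, next 1.62). The other 2 were fed livers. Fed 1 was the lowest for Slc25a12 (12.9 CPM, next 15.8), and fed 3 the highest for Slc25a34 (8.42 CPM, next 6.57).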

How the results depend on the processing

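Over 21 alternatives and 37 carriers, 707 of 773 estimates kept their direction and their side of the threshold, 45 lost a call, 6 gained one and 15 changed sign. No carrier that was called changed sign. The count of carriers that rose was 9 and of those that fell 2 at an adjusted p under 0.01. Shares of all genes are not given for this threshold, for fits without 1 library or for the replicate block named below. Leaving out 1 library gave 13 to 16 that rose and 2 to 5 that fell, a median log2 fold change of 0.19 to 0.36, 14 to 18 called genes among the other mitochondrial transport lists (16 with all libraries) and 2 (without any 1 fed library) to 5 (without starved 1) ratios past the threshold. With library totals alone the median of the carriers was 0.15. Signs that turned, all of genes not called, were with library totals alone those of Slc25a4 (-0.11), Slc25a16 (-0.0134), Slc25a17 (-0.0861), Slc25a30 (-0.0450) and Slc25a48 (-0.0703), and without starved 2 and 4, an alternative chosen after seeing the data, those of Slc25a30 (-0.0510), Slc25a42 (-0.0303), Slc25a48 (-0.0642) and Slc25a51 (-0.10). Without 1 library they were those of Slc25a4 (-0.0684 to 0.17), Slc25a25 (-0.78 to 0.11, with 0.0940 without starved 1 and 0.0464 without fed 5), Slc25a48 (-0.10 to 0.22) and Slc25a51 (-0.13 to 0.51). The number of ratios past the threshold was 0 without starved 2 and 4 and 0 with a replicate block, where exact sign flips of 5 pairs cannot go below 0.0625. The labels speak of 5 pairs of mice and number the livers 1 to 5 in both groups without saying that a number marks a pair, but deviations of same-numbered livers correlated at 0.19, 0.06, -0.01, -0.04 and -0.03, and 2 of 5 starved livers correlated best with their own number, so the numbers were not taken as pairs. With the replicate block 12 carriers rose and 4 fell, and Slc25a29, Slc25a33 and Slc25a45 were not called. The cause of these shifts was not tested. Depth limits the 9 carriers left untested and Slc25a27.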
